A study of Mus musculus with 6 samples.

Results

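The miR-130 and miR-301 family was represented on the array by 4 of its 1881 mouse miRNAs: mmu-miR-130a-3p, mmu-miR-130b-3p, mmu-miR-301a-3p and mmu-miR-301b-3p. They were chosen by name, and 10 of the 4415 probes measure them. The samples were exosomes, small vesicles released by cells, from the supernatant of RAW 264.7 cells, a mouse macrophage line. The LPS group was 3 samples from cells given 2 µg/mL lipopolysaccharide, which comes from the outer membrane of bacteria and activates macrophages, with supernatant taken after 72 h. The control group was 3 samples from normal cells of the same line, for which no culture time is labelled, so culture time and LPS cannot be told apart. Each sample was hybridised to 1 one-colour Agilent array. Nothing in the labels says that samples of a group came from separate cultures, so p-values rest on a spread between samples that could be technical only.

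A miRNA pairs with mRNAs mainly through its seed, bases 2 to 8 from the 5′ end, so miRNAs with the same seed can share targets. The miR-130 and miR-301 family is widely expressed in vertebrates. It is known for repressing Pparg, the gene of a nuclear receptor of fat cells and macrophages, through miR-130, and in human cancer cells miR-301a has been tied to NF-κB signalling through repression of NKRF. In mouse fibroblasts the family, with the seed relative miR-721, has been reported to aid reprogramming to pluripotency. Most miRNA hairpins give 1 abundant arm, and in this family it is the 3p arm.

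The mature sequences below show what the members share and where miR-130a-3p and miR-130b-3p part; they and miR-721 are shown because the results separate them. Capitals mark the seed, which reads AGUGCAA in each. They come from the RefSeq table of build GRCm38.p6, which matched 3 of the 4 members by name.
mmu-miR-130a-3p: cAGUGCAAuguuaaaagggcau
mmu-miR-130b-3p: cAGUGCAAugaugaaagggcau
mmu-miR-301a-3p: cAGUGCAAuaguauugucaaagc
mmu-miR-721: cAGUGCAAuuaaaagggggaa
Counted from 1 at the 5′ end, miR-130a-3p and miR-130b-3p differ at 2 of 22 bases, U11A and A13G, with the base of miR-130a-3p first. The miR-301a-3p sequence is 23 bases long and that of miR-721 is 21. In the same build miR-130a-3p lies on chromosome 2 at 84741116 to 84741137 on the minus strand, outside any listed gene other than its own. miR-301a-3p lies on chromosome 11 at 87113054 to 87113076 on the plus strand, within the span of Ska2, which encodes a spindle and kinetochore protein. miR-130b-3p lies on chromosome 16 at 17124071 to 17124092 on the minus strand. Its gene and Mir301b are 257 bases apart within the span of 2610318N02Rik.

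The hairpin of Mir130b, on chromosome 16 at 17124061 to 17124142, minus strand, shows the arms that the array measured separately. Capitals mark the 5p arm and then the 3p arm.
Mir130b hairpin: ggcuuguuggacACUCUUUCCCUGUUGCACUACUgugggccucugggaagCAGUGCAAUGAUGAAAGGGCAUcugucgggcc

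The probes decide how far the members can be separated, so those of the close pairs are shown, from the deposited scanner files. Each is the complement of the 3′ part of its miRNA, and capitals mark the bases that differ between the members of a pair when the probes are aligned at their 5′ ends.
miR-130a-3p, 19-base probe: atgccctttTaAcattgca
miR-130b-3p, 18-base probe: atgccctttCaTcattgc
miR-301a-3p, 21-base probe: gctttgacaatacTattgcac
miR-301a-3p, 20-base probe: gctttgacaatacTattgca
miR-301b-3p, 20-base probe: gctttgacaatacCattgca
miR-301b-3p, 17-base probe: gctttgacaatacCatt
The probes of miR-130a-3p and miR-130b-3p differ at T10C and A12T, and those of miR-301a-3p and miR-301b-3p at T14C alone, with positions counted from the probes' 5′ ends and the first-named member's base first. The files place these probes on mm9, with the first and last position as they give them. The longest probe of miR-130a-3p is at 84581334 to 84581317 of chromosome 2, that of miR-130b-3p at 17124225 to 17124209 of chromosome 16, that of miR-301a-3p at 86926559 to 86926578 of chromosome 11, and that of miR-301b-3p at 17124569 to 17124551 of chromosome 16.

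The arrays as a whole were brighter in LPS. Unscaled, the upper quartile (75th percentile) among the 198 miRNAs that every array detected was 2229 ± 180 in LPS and 477 ± 41.0 in control (SD, n = 3 each), a ratio of 4.67. The spiked-in RNAs averaged 0.878 times as bright in LPS as in control. An LPS array detected 412 to 446 of the 1881 miRNAs and a control array 213 to 228, so detection in LPS only was common. The effective feature size fraction that the headers record was 0.812 to 0.829 for LPS arrays and 0.6 for control arrays; its part in the results was not tested. Macrophage identity was checked with 4 blood-cell miRNAs taken as markers, of which 4 were detected on all LPS arrays and 3 on all control arrays, miR-142a-5p being detected in LPS only. Of 12 markers of serum, erythroid, endothelial, muscle, epithelial and neural sources, 11 were detected on no array, their summed unscaled signal being 87.8 to 102 per array in LPS and 44.3 to 57.3 in control. The exception, miR-200c-3p, was detected on the LPS arrays only. Its brightest probe read 34.6 to 39.7 there before scaling. The gene total, a signal per miRNA in the scanner output, listed it at 2456 to 2995 in LPS and 1.95 to 2.15 in control. The part of such sources in the results was not tested.

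Of the 4 members, 3 were detected in exosomes and 1 was not. Of all 1881 miRNAs a mean of 428 were detected on an LPS array and 219 on a control array. miR-130b-3p and miR-301a-3p were detected on all 6 arrays, and miR-301b-3p on 3 LPS and 2 control arrays. miR-130a-3p was detected on no array. In scaled signal the 3 detected members were higher in LPS, by 0.81 on the log2 scale for miR-130b-3p, by 1.04 for miR-301a-3p and at least 1.67-fold for miR-301b-3p on a linear scale, the last with its direction turned under normexp background correction. Of all tested miRNAs 65.5% were called higher.

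miR-130b-3p, whose gene neighbours Mir301b, had unscaled signals of 3611, 4146 and 4251 on the LPS arrays, against 444, 507 and 517 on the control arrays. All 3 LPS arrays were above all 3 control arrays, and the ratio of the means was 8.18. On the log2 scale without scaling its change was 3.03, beside a median of 2.99 over the 198 miRNAs. With every array brought to a common 75th percentile, the log2 scaled signal was 10.84, 10.83 and 10.88 in LPS, against 10.05, 10.00 and 10.08 in control. The groups did not overlap, and samples within a group lay far closer together than the groups did. The difference of 0.81 (SE 0.04, 1.75-fold) had an adjusted p of 2.14e-06 in limma with Benjamini-Hochberg adjustment over all 412 tested miRNAs.

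miR-301a-3p, which is encoded within Ska2, had unscaled signals of 557, 646 and 649 on the LPS arrays, against 57.7, 68.8 and 66.8 on the control arrays. The ratio of the means was 9.58. Its log2 scaled signal was 8.15, 8.15 and 8.17 in LPS, against 7.10, 7.12 and 7.13 in control, with an SD of 0.01 in each group. The arrays of a group were nearly alike and the groups did not overlap. The difference was 1.04 (SE 0.03, 2.05-fold, limma adjusted p = 2.48e-07).

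miR-301b-3p, the neighbour of miR-130b-3p on chromosome 16, had unscaled signals of 204, 284 and 275 on the LPS arrays, against 22.8, 24.5 and 21.4 on the control arrays. The control values lay below the lowest signal that was well above background on those arrays, which was 31.1 to 34.4. The member was well above background on 3 LPS arrays and on no control array, so its change has only a lower bound. In scaled signal it was at least 1.67-fold higher in LPS, from the LPS mean against the lowest signal well above background in control. This bound rests on the scaling and was from 1.21 to 8.91 in the alternatives. The fitted change was −0.21 with normexp background correction. miR-301b-3p entered the test through its LPS arrays alone, so its limma adjusted p of 2.6e-05 is given as a description and supports nothing here. The measured log2 means were 6.86 ± 0.14 in LPS and 5.63 ± 0.14 in control (SD, n = 3 each). LPS replicate 1, at 6.70, was the lowest of the LPS arrays and still above every control array.

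miR-130a-3p stayed near background in both groups. Its longer probe read 13.1, 14.8 and 13.8 on the LPS arrays and 10.9, 8.05 and 5.85 on the control arrays, unscaled. Its shorter probe read at most 5.13 in LPS and 1.63 in control. All these values are under the lowest signal well above background, 26.3 to 35.8 on the LPS arrays, so no fold is given and a low level of this miRNA was not detectable here. The miR-130a-3p probes gave these values on the LPS arrays where the miR-130b-3p probe, for an RNA that differs at 2 bases, read 3611 to 4251.

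**Figure D1:**
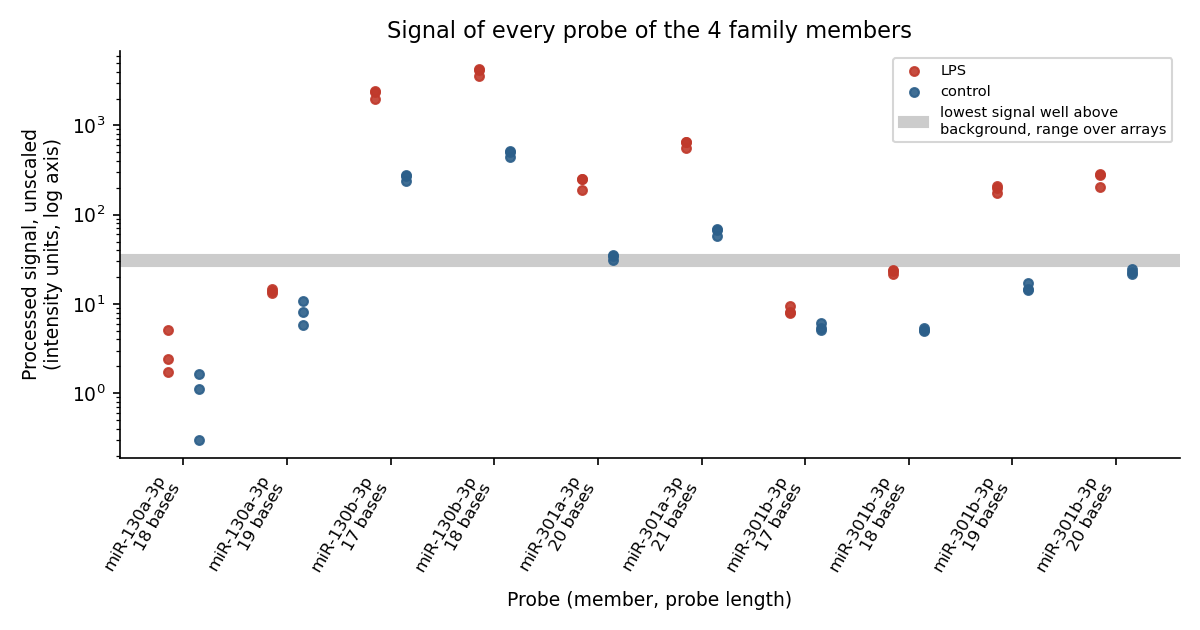
Unscaled processed signal of the 10 probes of the 4 members (log axis, intensity units), 1 point per array, with LPS left of control for each probe and the grey band marking the lowest signal well above background over the 6 arrays, 26.3 to 35.8. Both miR-130b-3p probes lie above the band in both groups, the longer miR-301b-3p probes are above it in LPS only, and both miR-130a-3p probes lie below it.

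The probes of a member did not give 1 value. A fit with each of 665 probes as its own feature was run over those well above background on all arrays of a group, which held 6 of the members' 10 probes. The 3 that were well above background on all 6 arrays passed as higher in LPS, against 67.5% of all probes tested. That share includes probes that entered through a single group, so it is not a like comparison. Both miR-130b-3p probes are among these 3. The other 3 entered through the LPS arrays, so their being higher was favoured by the filter. For miR-130b-3p the changes were 0.88 (SE 0.04) with the 17-base probe and 0.81 (SE 0.04) with the 18-base probe. For miR-301a-3p they were 1.04 (SE 0.03) with the 21-base probe and 0.53 (SE 0.10, limma adjusted p = 0.00262) with the 20-base probe, which read 189, 250 and 248 in LPS and 34.8, 35.4 and 30.9 in control before scaling. This shorter probe was well above background on 1 of 3 control arrays, and the change of miR-301a-3p was 0.69 when its probes were averaged.

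For miR-301b-3p the signal depended on probe length. In LPS the unscaled signal was 204 to 284 with the 20-base probe, 177 to 211 with the 19-base probe, 21.9 to 24.1 with the 18-base probe and 7.98 to 9.38 with the 17-base probe. In control it was 21.4 to 24.5, 14.3 to 17.1, 5.03 to 5.44 and 5.07 to 6.10 in the same order. The fitted change was 1.24 with the 20-base probe and 1.45 (SE 0.07) with the 19-base probe, neither of them well above background in control. These probes differ from those of miR-301a-3p at 1 base, and the part of miR-301a-3p RNA in their signal was not tested.

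**Figure D2:**
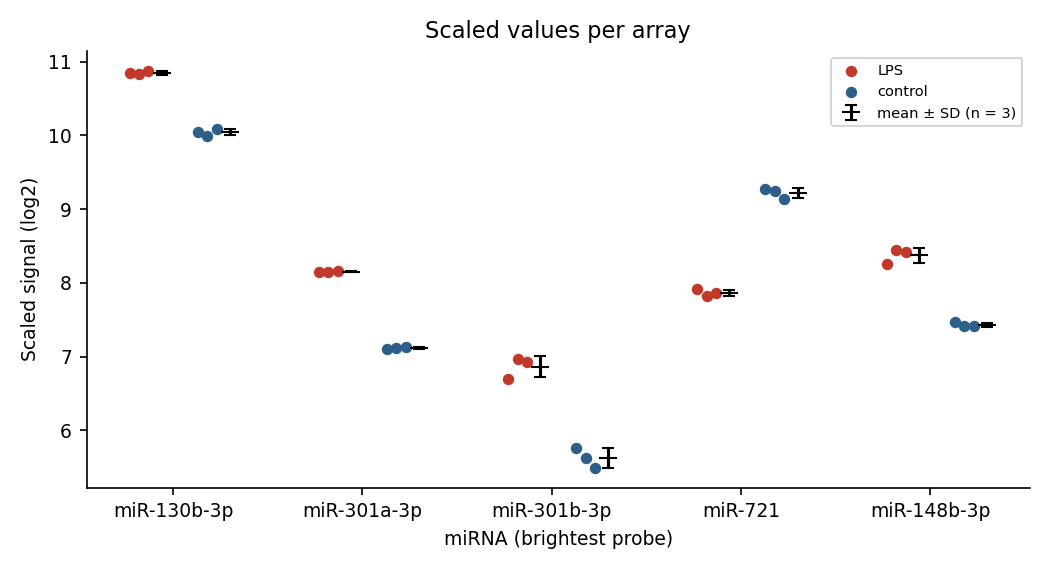
Log2 scaled signal of the brightest probe on each array, LPS left of control, with the mean ± SD of 3 arrays beside the points. miR-130b-3p, miR-301a-3p, miR-301b-3p and miR-148b-3p were higher on every LPS array than on any control array and miR-721 was lower, while miR-301b-3p turned under normexp, miR-148b-3p under the gene total and miR-721 without scaling or with spiked-in RNAs. Levels of different miRNAs rest on different probes and are not comparable.

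The rises were close to what the tested miRNAs did as a whole. The median change was 0.85 over all 412 tested miRNAs and 0.77 over the 198 detected on all 6 arrays; over the 3 tested members it was 1.04, with miR-301b-3p at its fitted value. miR-301b-3p was tested because it was detected on the LPS arrays, so neither its call nor this median counts as support. Both members detected on all arrays were called higher, against 65.5% of the 412 called higher, 26.7% called lower and 92.2% called in either direction. They were also called when the fit held only miRNAs detected on all arrays. Of those miRNAs, 58.1% were called higher and 38.4% lower in the fit over all 412. Their groups did not overlap, as for 66.3% of the tested miRNAs with LPS higher. Ranked from the highest change, miR-301a-3p stood at 177 and miR-130b-3p at 213 of 412; miR-301b-3p, with only a bound, has no rank. Of the markers of an LPS response, miR-155-5p was at 4.18 (SE 0.07), though at −1.04 with the gene total, and miR-146a-5p at 1.34 (SE 0.06) on the same arrays.

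**Figure D3:**
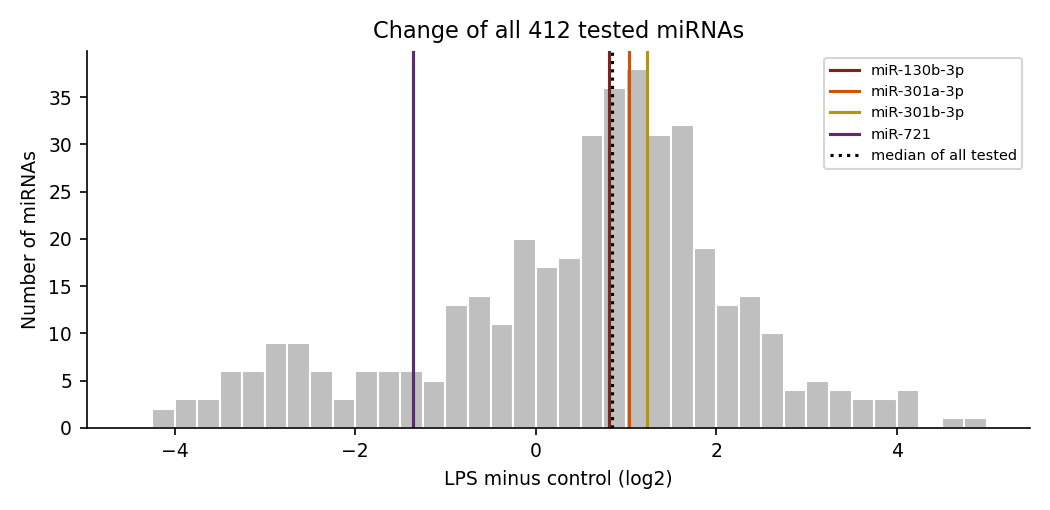
Number of tested miRNAs (vertical axis) by log2 change, LPS minus control (horizontal axis), in steps of 0.25, with vertical lines for 3 members, miR-721 and the median of all 412. The members at 0.81 to 1.24, the last a fitted value of miR-301b-3p, stand beside the median of 0.85, and miR-721 at −1.36 stands in the lower part, a direction that turned without scaling and with spiked-in RNAs.

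How far the members rose depended on how arrays were made comparable, and so did the median of all miRNAs. The median change of the 198 miRNAs was 0.77 here, 2.99 without scaling, 3.18 with scaling to the spiked-in RNAs, 0.32 with quantile normalization, 0.45 when arrays were centred on their medians and 0.11 with normexp background correction. The change of miR-130b-3p was above 0 in all 24 alternatives, from 0.49 to 3.22, and called in those with more than 1 LPS array. Less the median of the 198 miRNAs in the same setting it was 0.04 here and 0.016 to 0.81 in the alternatives. The change of miR-301a-3p was also above 0 in all 24, from 0.30 to 3.45, and called in the same ones. Less the same median it was 0.27 here, and −0.11 to 0.86 in the alternatives, the negative value being that of the authors' value table. The miR-301b-3p change was at −0.21 with normexp, so its direction turned with the background correction.

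**Figure D4:**
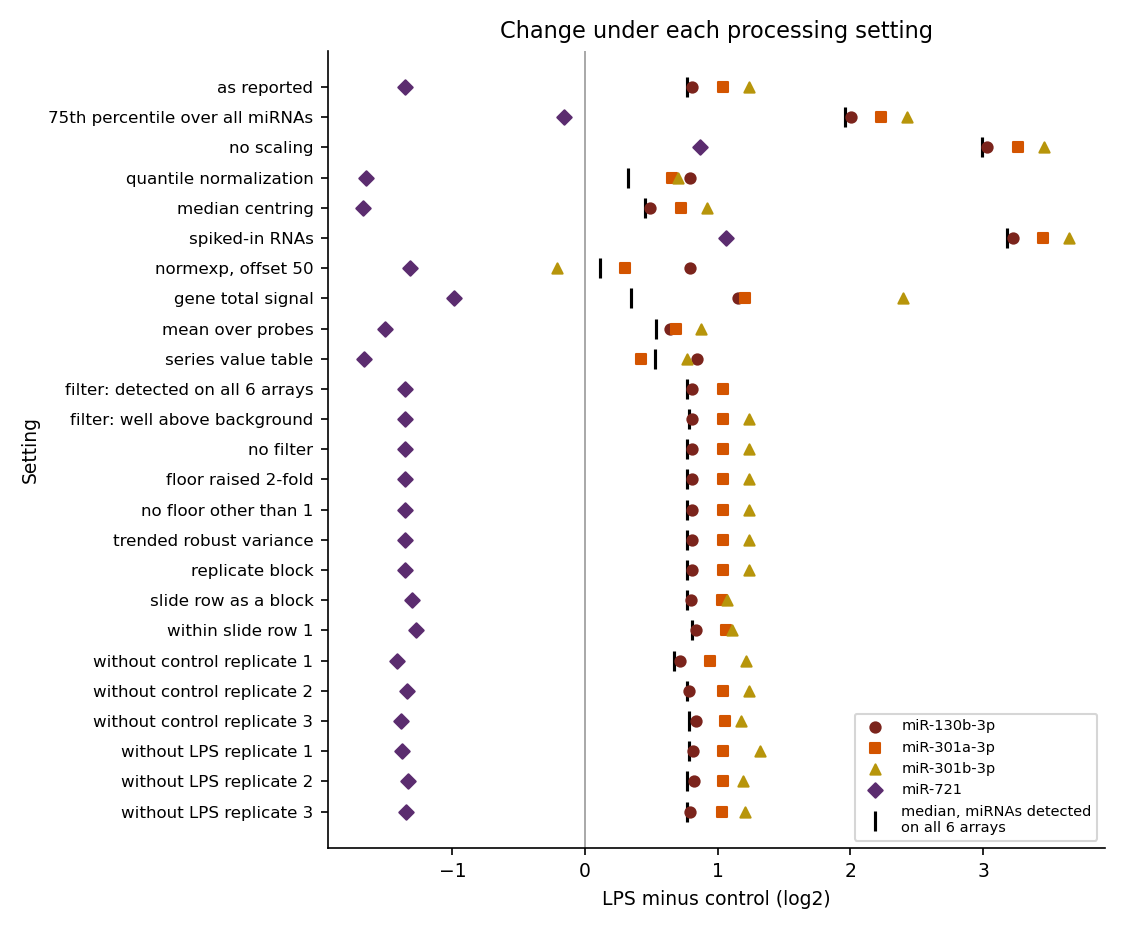
Log2 change, LPS minus control (horizontal axis), of 3 members and miR-721 under each processing setting (vertical axis), with a bar for the median of miRNAs detected on all 6 arrays. miR-130b-3p and miR-301a-3p stayed above 0 in every setting shown, miR-301b-3p was at −0.21 with normexp, and miR-721 was at 0.87 without scaling and 1.06 with spiked-in RNAs.

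The arrays shared 1 slide and 1 scan. The controls and LPS replicate 1 lay in its first row and the other LPS arrays in the second. With the row as a block the changes were 0.80 for miR-130b-3p, 1.03 for miR-301a-3p and 1.07 for miR-301b-3p. Within the first row, where 1 LPS array faced the 3 controls, they were 0.83, 1.06 and 1.11 in the same order; a lone LPS array gives no spread of its own, so these are values without a test.

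The authors' own value table, on a log2 scale with an unstated normalization, gave the members the same direction. In it miR-130b-3p had 10.91, 10.84 and 10.90 in LPS and 10.01, 10.05 and 10.05 in control, a difference of 0.84. miR-301a-3p had 7.57, 7.61 and 7.61 in LPS and 7.19, 7.21 and 7.12 in control, a difference of 0.42. miR-301b-3p had 4.79, 4.85 and 4.85 in LPS and 4.03, 4.24 and 3.92 in control, a difference of 0.77. In each of the 3 the LPS arrays lay above the control arrays. In the scaled signal 66.3% of the tested miRNAs were separated in this way with LPS higher. That share was not counted for the authors' table. Of the 412 tested in the authors' table, 288 were called higher and 92 lower. The median change of the miRNAs detected on every array was 0.53. Less this median, miR-130b-3p was at 0.31 and miR-301a-3p at −0.11. miR-301b-3p was tested through its LPS arrays alone, so its direction adds no support.

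The other arms of the family's hairpins were at background. None of the 5p arms, 4 in all, was detected on any array; their probes read at most 15.1 in LPS and 13.0 in control before scaling. Where the 3p arm of a hairpin rose, no 5p value could be set beside it.

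Of 4 other array miRNAs with the seed AGUGCAA, miR-721 was detected and miR-130c, miR-6341 and miR-6389 were not. The unscaled signal of miR-721, a rodent miRNA, was 473, 514 and 524 in LPS, against 259, 301 and 269 in control. Its LPS arrays were the brighter ones before scaling, by 1.82 in the ratio of means, against 4.67 for the upper quartile of the arrays. Its log2 scaled signal was 7.91, 7.82 and 7.86 in LPS, against 9.27, 9.24 and 9.14 in control, and it fell by 1.36 (SE 0.05, limma adjusted p = 5.15e-07), but its change was 0.87 without scaling and 1.06 when spiked-in RNAs set the scale. It was −0.16, with no call (limma adjusted p = 0.266), when the 75th percentile was taken over all miRNAs. With the percentile over the 198 miRNAs all 4 of its probes passed as lower, at −1.38 to −1.21. In the same scaling 26.7% of the 412 tested miRNAs were called lower, and the share over all probes was not counted. The 4 probes of miR-721 are 12 to 15 bases long and cover bases 7, 8, 9 or 10 to 21, so they leave most of the shared seed unread. They overlap, so their likeness is not independent support.

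Ratios between miRNAs of 1 array do not depend on a common scaling factor. The log2 ratio of miR-130b-3p to miR-721 was 2.93, 3.01 and 3.02 in LPS, against 0.78, 0.75 and 0.94 in control. It was 2.16 higher in LPS, and from 2.11 to 2.51 higher in the 18 alternatives. The ratio of miR-301a-3p to miR-721 was 0.24, 0.33 and 0.31 in LPS, against −2.17, −2.13 and −2.01 in control, a difference of 2.39 with a range of 1.62 to 2.44. Both ratios were higher in LPS under each of these alternatives. Those that only rescale an array, among them the ones that turned miR-721, could not move a ratio, so they add no support. In scaled signal 15.0% of the tested miRNAs had a smaller change than miR-721. Most tested miRNAs therefore also had a higher mean ratio to miR-721 in LPS, so the direction of these ratios is not particular to the members. The ratio of miR-130b-3p to miR-301a-3p was 2.70, 2.68 and 2.71 in LPS, against 2.95, 2.88 and 2.95 in control. The difference of −0.23 was larger than the spread of either group, but it was 0.14 with quantile normalization, 0.49 with normexp and 0.42 in the value table, so which of the 2 rose more is not settled. For each of the 3 ratios a two-sided exact permutation test gave p = 0.1 (adjusted p = 0.1 over 3 ratios), the smallest that 3 against 3 samples allow. These ratios were chosen after the values were seen.

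The miR-148 and miR-152 family has a seed shifted by 1 base against this one. Of its 3 members on the array, miR-148b-3p was detected and miR-148a-3p and miR-152-3p were not. miR-148b-3p had unscaled signals of 599, 792 and 775 in LPS, against 74.1, 85.0 and 81.1 in control. With its brightest probe, of 19 bases, it rose by 0.94 on the log2 scaled signal (SE 0.06, limma adjusted p = 8.49e-06). That lay between miR-130b-3p and miR-301a-3p, but its change was −3.42 with the gene total. Its 18-base probe, well above background on no control array, gave 0.64 (SE 0.11), below the brightest probes of both members.

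Other miRNAs followed the members closely over the 6 arrays. Likeness was the root mean square difference between log2 profiles, each less its own mean, among 197 other miRNAs detected on all arrays. Closest to miR-130b-3p were miR-19a-3p at 0.02, with a change of 0.83, miR-22-3p at 0.02, with 0.83, and miR-132-3p at 0.02, with 0.85. Closest to miR-301a-3p were miR-19b-3p at 0.0072, with a change of 1.04, miR-15a-5p at 0.02, with 1.02, and miR-223-3p at 0.03, with 1.08. With only 2 groups, such profiles are set mainly by the size of the change.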

How the data were processed

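Exosomes of 3 LPS and 3 control samples were isolated by size exclusion, and their RNA was measured on 6 one-colour arrays; the labels name a Cy3 kit for cRNA. The scanner output was deposited as intensity values, background-subtracted by Agilent Feature Extraction 10.7.1.1 per the file headers; the submitters' processing notes name version 9.1. The authors also deposited a table on a log2 scale; its normalization is not stated there, and its column medians were 2.73 to 2.74. Control spots and outlier spots were left out, spots averaged per probe, and a miRNA represented by its brightest probe. A probe counted as well above background on an array when most of its spots were flagged so. The scaling factor of an array was the 75th percentile of the 198 miRNAs that every array detected, relative to the geometric mean of these percentiles. Scaled values under 9.89 (log2 of 3.31), the median of the arrays' lowest detected values, were set to it before log2 was taken. The 412 miRNAs detected on 3 of 3 arrays of a group were fitted with limma 3.58.1 in R 4.3.3, and called at a Benjamini-Hochberg adjusted p under 0.05. The fit was tested on simulated data, but the outcome is not given here and lends the p-values no weight. The number of arrays limits the precision.

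The members, lists, tests and alternatives were chosen with earlier results of these data known. Named miRNAs were the members, their 5p arms, those sharing the seed, the miR-148 and miR-152 family, markers, and the 3 nearest profiles of each member detected on all arrays. No arrays held identical values; r within groups was 0.998 to 0.9998. Alternatives were other scalings, background corrections, probe summaries, filters, floors, blocks and left-out arrays.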

Additional observations from a re-analysis of the deposited data

How the results depend on the processing

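With 3 arrays a group on 1 slide, and LPS arrays brighter as a whole, levels rest on the scaling, and signals near background rest on its correction. The changes of miR-130b-3p and miR-301a-3p kept their direction in 24 of 24 alternatives each. They kept their call in those with more than 1 LPS array. Filters, floors and the replicate block left the changes at 0.81 and 1.04, so those settings bear on the call only. miR-301b-3p entered the test through its LPS arrays alone, so its calls under the alternatives support nothing here. Its change was −0.21 with normexp. With the files' gene total it was 2.39 with no call, where control replicate 3 was listed at 1.55 against 21.9 and 24.5 on the other controls. miR-301b-3p had no value over miRNAs detected on all arrays. Its bound was 3.82-fold with all miRNAs in the percentile, 8.91 with spiked-in RNAs, 7.81 unscaled, 1.21 with quantile normalization and 1.34 with median centring. Leaving out each replicate gave 0.72 to 0.84 for miR-130b-3p, 0.94 to 1.05 for miR-301a-3p, 1.18 to 1.32 for miR-301b-3p and a bound of 1.59 to 1.77. The replicate block left the 3 changes at 0.81, 1.04 and 1.24, and changed no call of these; 270 miRNAs were higher and 110 lower with it, as without. The numbers did not pair the samples: deviations of same-numbered arrays correlated at −0.40, −0.22 and −0.28 over 198 miRNAs. Over all miRNAs the 270 higher calls became 113 with normexp and 115 over those detected on all arrays. The 110 lower calls became 59 with all miRNAs in the percentile, 39 unscaled, 38 with spiked-in RNAs, 284 with normexp and 269 with no filter. Higher calls were 71.1% of calls, but 85.1%, 90.3%, 90.7%, 28.5% and 48.7% under these 5 settings in the same order. Among the other named miRNAs, miR-148b-3p was −3.42 and miR-155-5p −1.04 with the gene total; with normexp miR-142a-3p was −0.31, miR-142a-5p −0.37 and miR-200c-3p −0.54. miR-721 was 0.87 without scaling and 1.06 with spiked-in RNAs. The ratio of miR-130b-3p to miR-301a-3p turned to 0.14 with quantile normalization, 0.49 with normexp and 0.42 in the value table. The cause of these turns was not tested.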
